A study of Mus musculus with 6 samples.

Results

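Cytochrome P450 genes were followed in RNA-seq of intestinal organoids, cultures of gut epithelium kept in organoid medium. The members are the rows of the deposited expression table whose symbol begins with Cyp and a digit, without Cyp51, and there were 104 of them among 24956 genes. The organoids are of the genotype Apc Min, a nonsense mutation in Apc that releases β-catenin from destruction, and both groups carry it. Control organoids (n = 3) were set against organoids given DM-aKG (n = 3), the dimethyl ester of α-ketoglutarate, which enters cells more readily than the acid. The series title names Wnt signalling and differentiation in colorectal cancer as the question. Neither the dose nor the time is given in the sources used here, and the control is labelled only as a control treatment. Libraries are numbered as replicates, but nothing says that they came from separate mice, so p-values measure the spread between these samples, which may be technical.

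P450 enzymes hold a haem group and insert an oxygen atom into their substrate with electrons passed on by a reductase. Families 1, 2 and 3 mostly oxidise drugs, plant compounds and pollutants, family 4 hydroxylates fatty acids and eicosanoids, and the higher family numbers mostly act on sterols, steroids, vitamin D or retinoic acid. In the intestine they form the first oxidative barrier to what is eaten, and many of their genes answer to ligand-activated factors such as the aryl hydrocarbon receptor (AhR) and the nuclear receptors CAR, PXR and PPARα.

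Levels are given as RPKM, reads scaled to the length of the gene and the depth of the library, so they can be compared between genes. The libraries held an estimated 32700000 to 34300000 reads each, and at that depth a gene of 1 kb at 1 RPKM has a counting error of 17.1% to 17.5%. All 9 epithelial markers, Epcam and Vil1 among them, had a mean of at least 1 RPKM, and they summed to 2918 to 2966 RPKM in control and 3732 to 4638 in DM-aKG. They did not move together. Krt8, Krt18, Krt19, Cdh1 and Vil1 were higher in every DM-aKG library than in any control. Epcam, Cdx1 and Cdx2 were lower, and Cldn7 overlapped. Fibroblast markers summed to 0.01 to 0.04 RPKM and endothelial markers to 0.20 to 0.52, with Col3a1, Dcn, Lum, Cdh5 and Kdr at 0 in every library. Of 8 hepatocyte markers, Alb stayed at or below 0.67 RPKM and Fgb was at 0, and the 2 with a mean of at least 1 RPKM were Cps1 and Ttr, which brought the hepatocyte sum to 374 to 386 RPKM in control and 196 to 230.3 in DM-aKG. Immune markers summed to 1.31 to 1.58 RPKM in control and 2.20 to 3.38 in DM-aKG. The part of these markers in the P450 values was not tested. In bulk RNA, fewer cells of a type and less RNA per cell cannot be told apart.

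Of the 104 P450 genes, 33 reached a mean of 1 RPKM over the 6 libraries, 55 were detected below it and 16 were listed at 0 in every library. The symbol rule also takes in rows that encode no enzyme. Of the 103 members with a single position in GENCODE M21, 98 were protein-coding and 4 were pseudogenes, and Cyp4x1os was an antisense transcript. The pseudogenes and Cyp4x1os all lay below 1 RPKM by their means. All P450 genes together summed to 2269, 2011 and 2141 RPKM in the controls and to 2852, 2762 and 2718 RPKM in the DM-aKG libraries. Every DM-aKG library lay above every control, 1.30-fold by the means (exact permutation test, two-sided, p = 0.1, the smallest that 3 against 3 allows). As a share of all RPKM, the P450 genes took 0.536% to 0.613% in control and 0.758% to 0.788% in DM-aKG. A few genes carried most of this: the 5 most abundant, Cyp2c55, Cyp2c29, Cyp3a11, Cyp2c66 and Cyp2c65, made up 63.7% to 66.2% of the P450 sum. Without Cyp2c55, whose groups overlapped, the sum was 1.41-fold higher in DM-aKG.

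**Figure D1:**
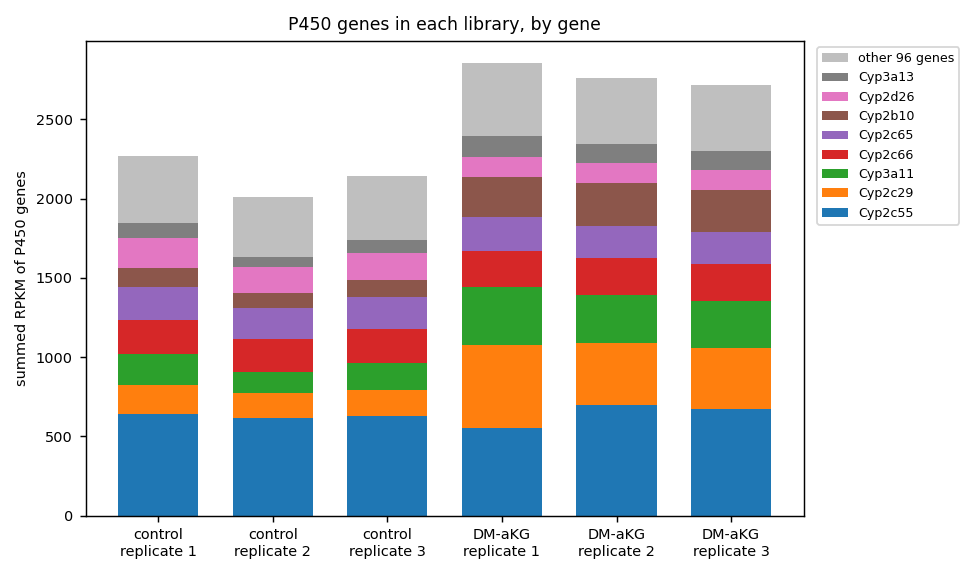
Summed RPKM of the P450 genes in each library (bars, from 0), divided into the 8 most abundant genes and the other 96. The DM-aKG bars reach 2718 to 2852 RPKM and the control bars 2011 to 2269, and the segments that widen most are Cyp2c29, Cyp3a11 and Cyp2b10.

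Among the 33 genes tested, 16 were higher in DM-aKG and 5 lower at an adjusted p under 0.05 (limma on log2(RPKM + 0.5), Benjamini-Hochberg over 10852 genes), and 12 did not pass. Of all genes tested, 30.9% were called higher and 24.7% lower, so the P450 genes held more calls upward (48.5%) and fewer downward (15.2%) than the table at large, a difference that was not tested. Of these genes, Cyp1b1, Cyp2c37 and Cyp2e1 had a control mean under 1 RPKM and entered only through DM-aKG, while Cyp2w1 and Cyp11a1 entered only through control, so these 5 had to differ. A called change of at least 2-fold upward was reached by 8 of the 33, against 2.68% of all genes tested, and downward by 1, against 1.32%. Without the 5 genes that entered through a single group, 28 remained, of which 13 were higher, 5 of them at least 2-fold, and 3 lower, and the gene that fell by 2-fold was among those left out. These counts were chosen after seeing the data, and the shares of all genes carry no such restriction. The groups did not overlap, with DM-aKG higher, in 17 genes and, with DM-aKG lower, in 5 (35.3% and 28.9% of all genes tested). The median log2 fold change was 0.20 over the P450 genes and 0.02 over all genes tested. When each library was centred on its median, all genes split into 2790 higher and 3340 lower calls, and the P450 genes into 14 and 5. The P450 median was 0.14 without DM-aKG replicate 1.

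**Figure D2:**
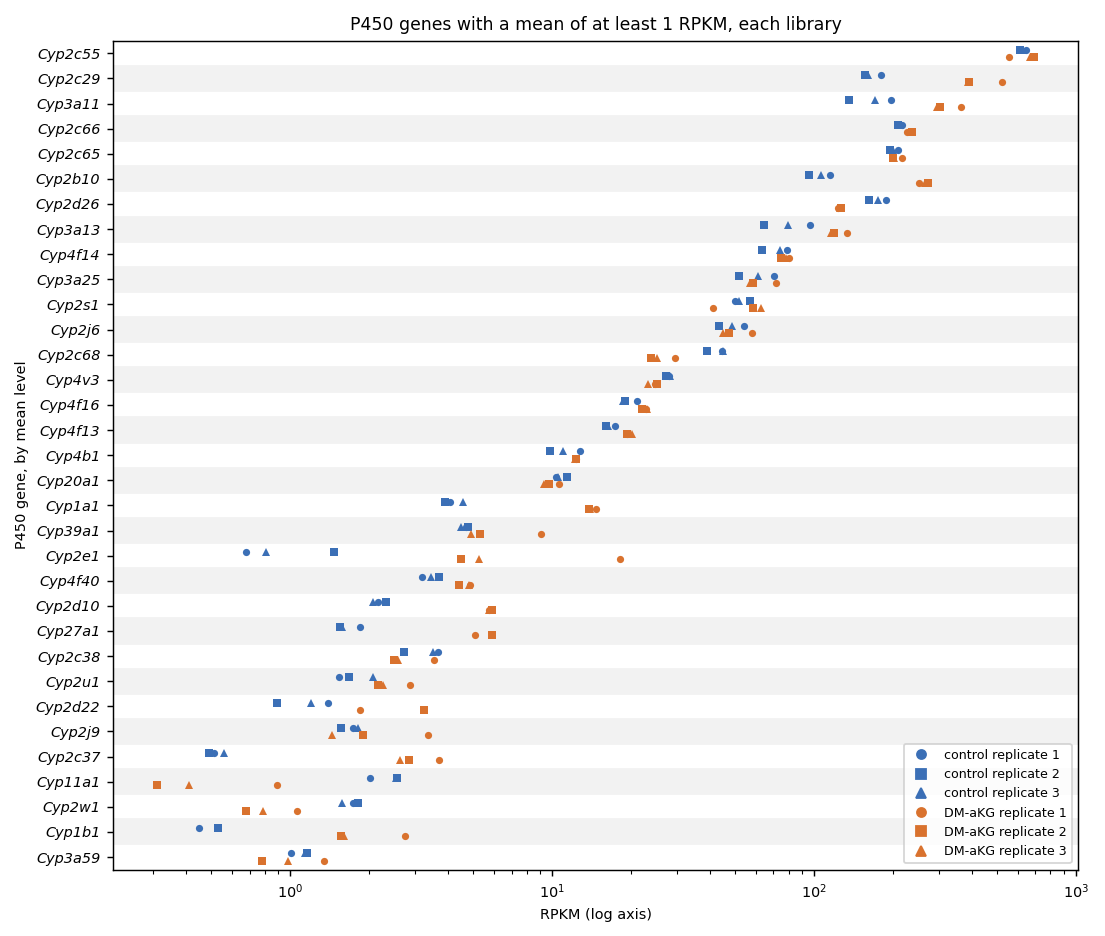
RPKM (log axis) of the 33 P450 genes with a mean of at least 1 RPKM in each of the 6 libraries, ordered by mean level, with control in blue, DM-aKG in orange and a marker shape for each replicate number. Cyp2c55 stands highest, at 553 to 695 RPKM, and the orange points lie clear to the right of the blue ones for Cyp2c29, Cyp3a11, Cyp2b10, Cyp1a1, Cyp2e1 and Cyp27a1.

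Over the tested P450 genes, libraries within a group differed in a common direction. Control replicate 2 was the lowest control for 21 of the 33 genes, and DM-aKG replicate 1 was the highest DM-aKG library for 21. These ranks were not counted over all genes tested, so they may belong to the libraries and not to the P450 genes. The sum of 9 enterocyte markers was 2238, 1965 and 2090 RPKM in the controls and 2128, 2260 and 2139 in DM-aKG. Within it, Fabp1 and Anpep were higher in every DM-aKG library than in any control. Alpi, Apoa4 and Apoc3 were lower, and the other members overlapped. The sum of 7 Paneth markers was 2234, 2919 and 2318 RPKM in the controls and 1695, 744 and 717 in DM-aKG, and that of 7 goblet markers was 1420 to 1549 in control and 525 to 720 in DM-aKG (719.9 in replicate 1). The Paneth marker Ang4 and the goblet markers Clca1 and Zg16 overlapped, and the other members were lower. The part of these cell types in the P450 values was not tested. Without control replicate 2 and DM-aKG replicate 1 together, 17 of 32 P450 genes were higher and 7 lower. In that fit, 3721 of all 10837 genes tested were higher and 3270 lower, also more than in the main fit.

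Both tested genes of family 1, the family induced by aromatic hydrocarbons through AhR, rose, where 30.9% of all genes tested were higher. Cyp1a1, which hydroxylates polycyclic aromatic hydrocarbons, stood at 4.08, 3.90 and 4.57 RPKM in control and at 14.8, 13.8 and 14.0 in DM-aKG. The libraries of each group lay close together and far from the other group. Cyp1a1 rose by 1.65 ± 0.06 on the log2 scale (SE; adjusted p = 2.82e-06 by limma). Cyp1b1, which oxidises oestrogens and hydrocarbons, stood at 0.45, 0.53 and 0.53 RPKM in control and at 2.74, 1.56 and 1.61 in DM-aKG. DM-aKG replicate 1 was the highest, and all 3 exceeded the controls (log2 fold change 1.27 ± 0.18; adjusted p = 7.81e-04 by limma). Cyp1b1 entered the test only through DM-aKG, so it had to differ. At such low levels the pseudocount of 0.5 holds the log2 value down, and the ratio of the Cyp1b1 means was 3.91. Without DM-aKG replicate 1, Cyp1b1 fell below the filter and was not tested. Cyp1a2, the hepatic member, stayed at or below 0.10 RPKM in every library. Cyp1a1 lies on chromosome 9, 57687928 to 57703824 (plus strand) of GRCm38.

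The promoters of members that differed in response are shown as the window from 250 bases before to 50 after the RefSeq start (assembly GRCm38.p6). Capitals mark matches on either strand to 4 motifs. GCGTG is the core bound by AhR with its partner. TATAAA is the lettering of the TATA box, which can place the start of transcription where it lies shortly before that start. The letters TGNACTTTG are a site of the nuclear receptor HNF4A, and TGACNNNGC is the antioxidant element. In the windows printed here no match overlaps another. Cyp1a1 is shown as the AhR target, Cyp2b10 and Cyp3a11 as risen targets of CAR and PXR, Cyp2c29, Cyp2c55 and Cyp2c68 as neighbours that rose, did not pass and fell, and Cyp2d26 as an abundant gene that fell. Each is written 5′ to 3′ along its gene's strand, from Cyp1a1 chr9:57697363-57697662 (plus strand), Cyp2b10 chr7:25897408-25897707 (plus strand), Cyp3a11 chr5:145879805-145880104 (minus strand), Cyp2c29 chr19:39286835-39287134 (plus strand), Cyp2c55 chr19:39006769-39007068 (plus strand), Cyp2c68 chr19:39741052-39741351 (minus strand) and Cyp2d26 chr15:82794196-82794495 (minus strand).
Cyp1a1: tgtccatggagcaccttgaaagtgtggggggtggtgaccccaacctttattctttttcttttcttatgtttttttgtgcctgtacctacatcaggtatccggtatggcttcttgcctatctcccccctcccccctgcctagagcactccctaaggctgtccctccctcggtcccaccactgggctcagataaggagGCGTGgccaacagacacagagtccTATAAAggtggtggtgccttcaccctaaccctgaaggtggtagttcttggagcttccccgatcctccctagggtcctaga
Cyp2b10: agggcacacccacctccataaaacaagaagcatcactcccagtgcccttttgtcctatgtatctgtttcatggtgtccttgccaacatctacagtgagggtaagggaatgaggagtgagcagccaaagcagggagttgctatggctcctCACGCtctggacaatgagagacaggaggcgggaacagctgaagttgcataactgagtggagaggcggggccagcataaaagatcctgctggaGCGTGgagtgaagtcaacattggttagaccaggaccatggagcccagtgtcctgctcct
Cyp3a11: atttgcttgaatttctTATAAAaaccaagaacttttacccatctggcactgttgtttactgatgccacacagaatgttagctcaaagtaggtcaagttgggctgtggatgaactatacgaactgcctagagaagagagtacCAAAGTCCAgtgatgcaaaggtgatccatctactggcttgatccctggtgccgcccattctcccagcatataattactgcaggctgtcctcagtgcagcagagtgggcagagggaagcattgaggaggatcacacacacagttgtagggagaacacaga
Cyp2c29: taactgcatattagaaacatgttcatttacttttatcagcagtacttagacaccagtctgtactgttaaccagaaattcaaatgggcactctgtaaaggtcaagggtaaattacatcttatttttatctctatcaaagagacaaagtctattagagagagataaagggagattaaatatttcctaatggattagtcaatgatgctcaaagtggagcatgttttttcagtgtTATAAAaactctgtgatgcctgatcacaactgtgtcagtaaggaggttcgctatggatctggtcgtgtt
Cyp2c55: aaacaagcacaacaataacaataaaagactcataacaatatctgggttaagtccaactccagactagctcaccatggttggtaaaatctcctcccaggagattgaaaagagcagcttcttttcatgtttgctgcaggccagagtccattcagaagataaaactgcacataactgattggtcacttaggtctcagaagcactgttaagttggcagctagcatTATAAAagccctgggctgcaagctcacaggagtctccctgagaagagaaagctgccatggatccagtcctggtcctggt
Cyp2c68: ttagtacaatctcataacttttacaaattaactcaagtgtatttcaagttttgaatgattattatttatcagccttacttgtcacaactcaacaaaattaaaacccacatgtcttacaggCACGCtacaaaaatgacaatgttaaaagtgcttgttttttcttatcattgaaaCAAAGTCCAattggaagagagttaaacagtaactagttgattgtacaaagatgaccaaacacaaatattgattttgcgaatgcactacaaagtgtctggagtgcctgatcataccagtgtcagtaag
Cyp2d26: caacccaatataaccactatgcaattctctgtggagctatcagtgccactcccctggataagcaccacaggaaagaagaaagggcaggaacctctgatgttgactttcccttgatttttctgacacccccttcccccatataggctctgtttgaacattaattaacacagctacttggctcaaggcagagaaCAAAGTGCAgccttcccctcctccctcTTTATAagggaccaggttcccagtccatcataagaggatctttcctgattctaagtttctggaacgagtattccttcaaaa
Of the 33 tested genes, 30 had such a window. GCGTG was in the windows of 10 of these 30, of which 4 rose, 3 fell and 3 did not pass, and in 32.4% of all 32851 windows. TATAAA was in 10 of the 30 against 13.6% of all windows, and TGACNNNGC in 4 against 12.4%. TGNACTTTG was in 5 of the 30, in Cyp2c37, Cyp2c65, Cyp2c68, Cyp2d26 and Cyp3a11, against 1.41% of all windows. Of these 5 genes 2 rose, 2 fell and 1 did not pass. Cyp2c37, Cyp2c65 and Cyp2c68 are related genes of a single cluster, so their matches need not be independent. The same holds for the Cyp2c genes with TATAAA. In Cyp1a1 the GCGTG match lies at -54 to -50 and the TATAAA match at -30 to -25 from the start, and in Cyp2c55 TATAAA lies at -29 to -24. Other TATAAA matches lie much farther from the start, at -234 to -229 in Cyp3a11, -162 to -157 in Cyp2c65 and -150 to -145 in Cyp2c66. The counts take in a match anywhere in the window. A match of letters is a description and not evidence that a factor binds.

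Family 2, the largest, had 51 genes, of which 17 were tested, 8 rose, 3 fell and 6 did not pass. The shares were 47.1% higher and 17.6% lower, against 30.9% and 24.7% of all genes tested. These counts include Cyp2c37, Cyp2e1 and Cyp2w1, which entered through a single group. Cyp2b10, the classical target of CAR and of phenobarbital, stood at 115, 95.9 and 106 RPKM in control and at 253, 273 and 266 in DM-aKG. The groups were well apart, and Cyp2b10 rose by 1.32 ± 0.07 on the log2 scale (adjusted p = 9.99e-06 by limma). It lies on chromosome 7, 25897620 to 25926624 (plus strand), and the other 4 Cyp2b genes did not reach a mean of 1 RPKM. P450 genes of other subfamilies lie near it. Among them is Cyp2s1, the P450 gene just before it, at a mean of 53.6 RPKM over the 6 libraries. Cyp2e1, which oxidises ethanol and acetone, stood at 0.68, 1.47 and 0.81 RPKM in control and at 18.2, 4.49 and 5.24 in DM-aKG. Cyp2e1 entered the test only through DM-aKG and rose by 2.49 ± 0.47 on the log2 scale (adjusted p = 0.00302 by limma), with replicate 1 far above the other DM-aKG libraries. With that library left out, Cyp2e1 rose by 1.88 on the log2 scale (adjusted p = 1.77e-04 by limma).

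The Cyp2c genes, epoxygenases and hydroxylases of arachidonic acid and of drugs, form a cluster on chromosome 19, and neighbours in it moved differently. In GRCm38, 15 of these genes lie between 39007019 and 40187333, and 7 of them were tested, of which 3 rose, 1 fell and 3 did not pass. The shares were 42.9% higher and 14.3% lower, against 30.9% and 24.7% of all genes tested. Cyp2c55, an intestinal epoxygenase, was the most abundant P450 gene, at 643, 614 and 629 RPKM in control and 553, 695 and 670.2 in DM-aKG. The DM-aKG libraries lay on both sides of the controls (log2 fold change 0.02 ± 0.09; adjusted p = 0.868 by limma), and without DM-aKG replicate 1 the gene Cyp2c55 was called higher (log2 fold change 0.12; adjusted p = 0.0297 by limma). Cyp2c29, which makes epoxyeicosatrienoic acids and responds to CAR in liver, stood at 179.9, 157 and 162 RPKM in control and at 523, 392 and 389 in DM-aKG. All DM-aKG libraries were far above the controls, replicate 1 the most, and Cyp2c29 rose by 1.37 ± 0.12 on the log2 scale (adjusted p = 7.72e-05 by limma). Within each library, the ratio of Cyp2c29 to Cyp2c55, which no scaling of libraries can move, was 0.280, 0.256 and 0.257 in control and 0.944, 0.565 and 0.580 in DM-aKG. This pair was chosen after its values were seen.

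Cyp2c37 was at a low level, 0.51, 0.49 and 0.56 RPKM in control and 3.69, 2.85 and 2.63 in DM-aKG. It entered the test only through DM-aKG, so it had to differ (log2 fold change 1.79 ± 0.12; adjusted p = 3.31e-05 by limma). The ratio of its means was 5.88. Cyp2c68 stood at 44.7, 39.2 and 44.9 RPKM in control and at 29.5, 23.9 and 25.2 in DM-aKG. It was the tested Cyp2c gene that fell, by 0.71 ± 0.09 on the log2 scale (adjusted p = 4.14e-04 by limma). Cyp2c65 was at 202 ± 7.37 RPKM (mean ± SD, n = 3, as below) in control and 206 ± 8.95 in DM-aKG, with overlapping groups (adjusted p = 0.607 by limma). Cyp2c66 rose slightly, from 213 ± 3.96 to 232 ± 5.26 RPKM (adjusted p = 0.0327 by limma), a call lost when any library other than DM-aKG replicate 1 was left out (adjusted p = 0.0618 to 0.107 by limma). Cyp2c38 was at 3.30 ± 0.497 RPKM in the controls and 2.87 ± 0.590 with DM-aKG (adjusted p = 0.316 by limma), and without DM-aKG replicate 1 it was called lower (adjusted p = 0.0391 by limma).

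Some of these genes have near-identical copies, among which reads could be divided in ways RPKM does not show. The longest open reading frames of Cyp2c65 and Cyp2c66 were 96.3% identical. Of the 50-base windows in the transcripts of Cyp2c68, 43.3% also occurred in another P450 gene, most often Cyp2c40, and for Cyp2c37 the share was 30.1%, most often Cyp2c50. Cyp2c40 was at 0.127 RPKM in the controls and 0.153 with DM-aKG, and Cyp2c50 at 0.01 and 0.0167 (means). For Cyp2c29 the shared windows came to 4.15%, and for Cyp2c55 to 0. The levels of Cyp2c65, Cyp2c66, Cyp2c68 and Cyp2c37 are therefore uncertain.

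**Figure D3:**
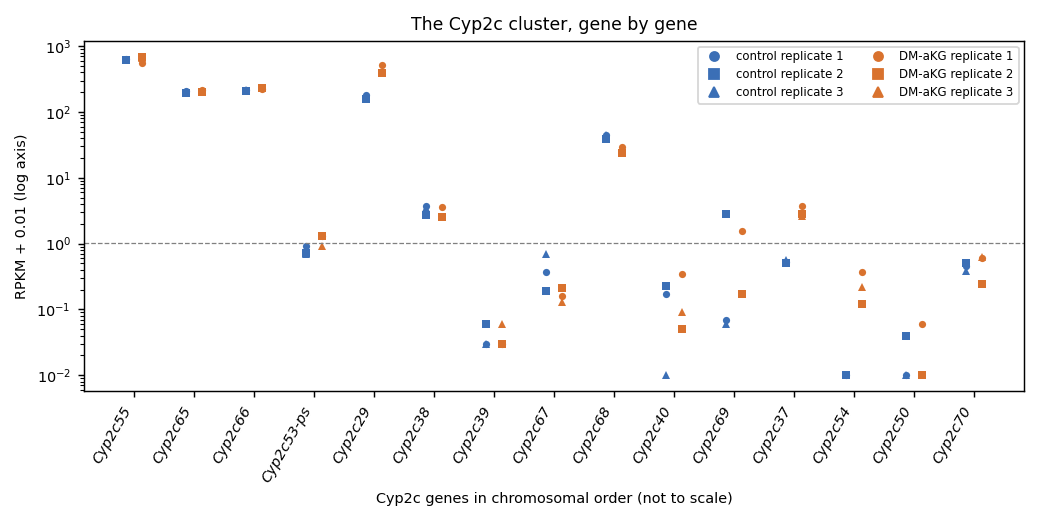
RPKM + 0.01 (log axis; genes at 0 sit at 0.01) of 15 Cyp2c genes in their order along chromosome 19, in each library, with control in blue and DM-aKG in orange and a dashed line at 1 RPKM. Cyp2c29 (157 to 179.9 RPKM in control, 389 to 523 in DM-aKG) and Cyp2c37 are raised in DM-aKG, Cyp2c68 is lower, and Cyp2c55, Cyp2c65 and Cyp2c38 overlap.

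In the Cyp2d cluster on chromosome 15, which holds counterparts of the human drug oxidase CYP2D6, the 3 tested genes passed in opposite directions. Cyp2d10 stood at 2.16, 2.33 and 2.08 RPKM in control and at 5.76, 5.90 and 5.76 in DM-aKG, with little spread (log2 fold change 1.23 ± 0.06; adjusted p = 7.39e-06 by limma). Cyp2d22 rose from 1.16 ± 0.257 to 2.77 ± 0.80 RPKM (adjusted p = 0.00476 by limma), with DM-aKG replicate 1 at 1.85 and replicates 2 and 3 at 3.23 and 3.24. The abundant Cyp2d26 stood at 188, 162 and 176 RPKM in control and at 124, 126 and 126 in DM-aKG. It fell by 0.48 ± 0.06 on the log2 scale (adjusted p = 3.59e-04 by limma), and every DM-aKG library lay below every control. Of the 50-base windows of Cyp2d10, 32.7% also occurred in another P450 gene, most often Cyp2d11, which was at 0.00667 and 0.0267 RPKM in the groups, so the level of Cyp2d10 is uncertain.

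The remaining tested genes of family 2 were a gene that fell, a gene that rose and 3 that did not pass. Cyp2w1, known from fetal gut and colon tumours, fell from 1.71 ± 0.118 to 0.843 ± 0.196 RPKM (adjusted p = 0.00181 by limma). It entered the test only through control, so it had to differ. Cyp2s1, an epithelial P450 outside the liver, was at 50.1, 57.0 and 51.8 RPKM in control and at 41.3, 58.8 and 62.8 in DM-aKG, so that DM-aKG replicate 1 was lowest of all and the others highest. Its groups overlapped (adjusted p = 0.942 by limma), and without DM-aKG replicate 1 the gene Cyp2s1 was called higher (log2 fold change 0.20; adjusted p = 0.0223 by limma). The arachidonate epoxygenase gene Cyp2j6 was at 48.6 ± 5.35 RPKM in the controls and 50.1 ± 6.82 with DM-aKG (adjusted p = 0.778 by limma), and Cyp2j9 at 1.70 ± 0.132 and 2.23 ± 0.993 (adjusted p = 0.363 by limma). Cyp2u1, which hydroxylates long-chain fatty acids, rose from 1.76 ± 0.286 to 2.43 ± 0.384 RPKM (adjusted p = 0.0350 by limma), and this call was lost without control replicate 1 or 2 or DM-aKG replicate 1 or 3 (adjusted p = 0.0573 to 0.115 by limma).

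Family 3 contains the broad drug oxidases of gut and liver, and 2 of its 4 tested genes rose. With 30.9% of all genes tested higher, so few genes say little. Cyp3a11, a PXR target and the counterpart of human CYP3A4, stood at 197, 136 and 172 RPKM in control and at 364, 304 and 295 in DM-aKG. All DM-aKG libraries exceeded all controls, and Cyp3a11 rose by 0.94 ± 0.13 on the log2 scale (adjusted p = 8.64e-04 by limma). Cyp3a13, an intestinal member, stood at 96.7, 64.4 and 79.7 RPKM in control and at 134, 119 and 116 in DM-aKG. It rose by 0.63 ± 0.13 on the log2 scale (adjusted p = 0.00513 by limma), and the lowest control of both Cyp3a11 and Cyp3a13 was replicate 2. Cyp3a25, the next P450 gene to Cyp3a11 on chromosome 5, was at 61.0 ± 9.27 RPKM in the controls and 62.6 ± 8.06 with DM-aKG, with overlapping groups (adjusted p = 0.797 by limma). Without control replicate 2 and DM-aKG replicate 1 together, Cyp3a25 was called lower (log2 fold change -0.17; adjusted p = 0.0445 by limma). The ratio of Cyp3a11 to Cyp3a25 within each library, also chosen after its values were seen, was 2.80, 2.64 and 2.82 in control and 5.07, 5.17 and 5.17 in DM-aKG. That ratio varied far less within groups than either gene. Cyp3a59 was at 1.10 ± 0.0814 and 1.04 ± 0.289 RPKM (adjusted p = 0.672 by limma), just inside the filter. Its reading frame was 97.5% identical to that of Cyp3a25, and the levels of both are uncertain.

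**Figure D4:**
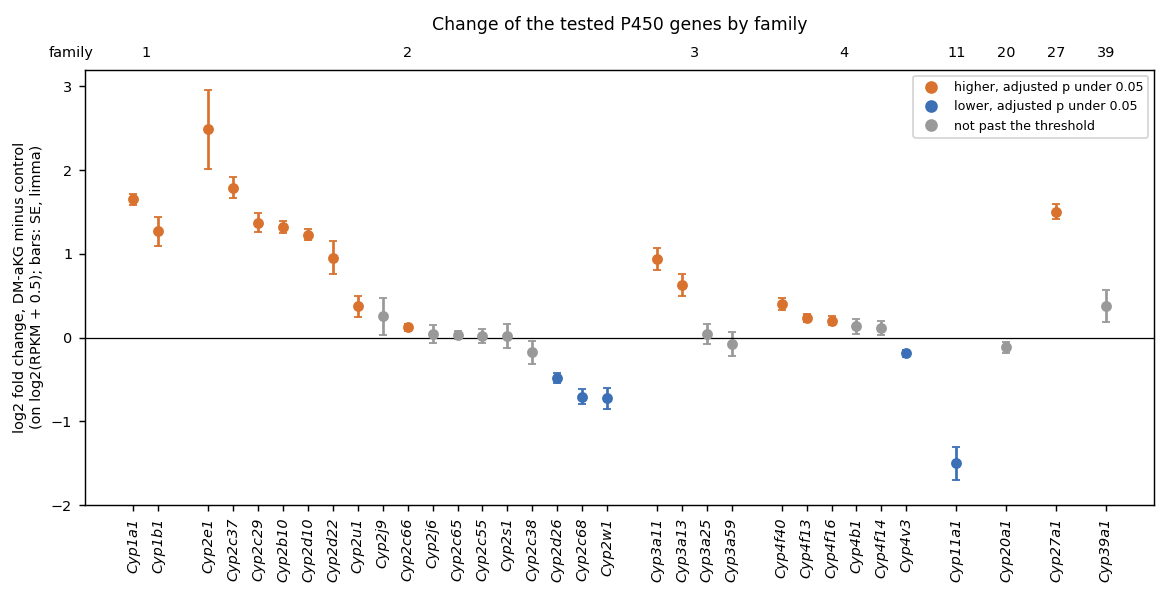
Log2 fold change (DM-aKG minus control, on log2(RPKM + 0.5)) with its SE from limma for the 33 tested P450 genes, ordered by family number and colored by call. Families 1 and 27 are raised, families 2, 3 and 4 hold genes on both sides of 0 or near it, and the single tested gene of family 11 is lowest at -1.502.

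Family 4, the fatty acid and eicosanoid hydroxylases, changed little. Of 23 genes 6 were tested, of which 3 rose, 1 fell and 2 did not pass, all by less than 2-fold. The shares over all genes tested were 30.9% higher and 24.7% lower. Cyp4f14, a leukotriene B4 hydroxylase and the most abundant, was at 79.0, 63.2 and 73.9 RPKM in control and at 80.2, 74.9 and 78.1 in DM-aKG, with overlapping groups (adjusted p = 0.251 by limma). Cyp4f40 rose from 3.44 ± 0.245 to 4.69 ± 0.252 RPKM (adjusted p = 0.00223 by limma) and Cyp4f13 from 16.6 ± 0.710 to 19.6 ± 0.449 (adjusted p = 0.00373 by limma). Cyp4f16 rose from 19.6 ± 1.31 to 22.6 ± 0.503 RPKM (adjusted p = 0.0143 by limma), a call lost without control replicate 3 (adjusted p = 0.0622 by limma). Cyp4v3, a fatty acid hydroxylase, fell from 27.8 ± 0.501 to 24.4 ± 0.983 RPKM (adjusted p = 0.00786 by limma). Cyp4b1 was at 11.2 ± 1.51 and 12.3 ± 0.0493 RPKM (adjusted p = 0.217 by limma), and without control replicate 1 it was called higher (adjusted p = 0.0227 by limma). None of the 8 Cyp4a genes, targets of PPARα in liver, reached a mean of 1 RPKM. The Cyp4a10 gene was at 0.12, 0.07 and 0.05 RPKM in control and at 0.28, 0.32 and 0.25 in DM-aKG.

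The tested genes of families 11, 20, 27 and 39 were a gene that rose, a gene that fell and 2 that did not pass. Cyp27a1, the mitochondrial sterol 27-hydroxylase of bile acid and oxysterol synthesis, stood at 1.84, 1.55 and 1.58 RPKM in control and at 5.06, 5.90 and 5.89 in DM-aKG. The groups were far apart, and Cyp27a1 rose by 1.503 ± 0.09 on the log2 scale (adjusted p = 1.46e-05 by limma). Cyp11a1, the mitochondrial enzyme that cuts the side chain of cholesterol in the first step of steroid synthesis, stood at 2.01, 2.55 and 2.54 RPKM in control and at 0.89, 0.31 and 0.41 in DM-aKG. Every DM-aKG library was below every control, and Cyp11a1, which entered the test only through control, fell by 1.502 ± 0.20 on the log2 scale (adjusted p = 6.21e-04 by limma). The other genes of family 11, Cyp11b1 and Cyp11b2, were at or below 0.07 RPKM throughout. Cyp39a1, an oxysterol hydroxylase, was at 4.71, 4.77 and 4.48 RPKM in control and at 9.10, 5.30 and 4.92 in DM-aKG. Its groups did not overlap, but DM-aKG replicate 1 carried most of the difference and the test did not pass (adjusted p = 0.129 by limma). Cyp20a1, an enzyme with no settled substrate, was at 10.7 ± 0.562 RPKM in the controls and 9.89 ± 0.674 with DM-aKG (adjusted p = 0.154 by limma), and without DM-aKG replicate 1 it was called lower (adjusted p = 0.0329 by limma).

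No member of families 7, 8, 17, 19, 21, 24, 26 or 46 reached a mean of 1 RPKM. These include the bile acid genes Cyp7a1, Cyp7b1 and Cyp8b1, the steroid genes Cyp17a1, Cyp19a1 and Cyp21a1, the vitamin D catabolic gene Cyp24a1 and the retinoic acid hydroxylase genes Cyp26a1, Cyp26b1 and Cyp26c1. None of these families had a value above 0.06 RPKM in any library. The genes nearest to the filter from below were Cyp2c53-ps, at a mean of 0.965 RPKM, and Cyp4f17, at 0.928, and nearest from above were Cyp3a59, at 1.07, and Cyp1b1, at 1.24. Among the 55 genes detected below the filter, all DM-aKG libraries exceeded all controls in 8 and lay under all controls in 1, against 12.7% and 9.17% of the 7491 genes detected below the filter in the whole table. These genes were not tested.

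Genes of connected pathways are given by lists chosen with earlier results of these data known, and each count stands beside the share over all tested genes, 30.9% higher and 24.7% lower. Of 12 tested electron partners of P450s, 5 were higher (41.7%) and 3 lower (25%), the latter near the share of all genes, with a median log2 fold change of 0.19. Of the 5, Cyb5r2 had a control mean of 0.933 RPKM and entered only through DM-aKG, so it had to differ. Without DM-aKG replicate 1, 8 partners were higher, and the calls over all genes went from 3354 to 3660 higher. Cyb5r3, a reductase of cytochrome b5, rose from 77.1 ± 2.68 to 111.7 ± 6.76 RPKM (adjusted p = 1.91e-04 by limma), and Pgrmc1, a haem protein that binds P450s, from 83.5 ± 3.54 to 114 ± 11.8 (adjusted p = 0.00198 by limma). Its paralog Pgrmc2 fell from 39.2 ± 1.74 to 29.1 ± 1.054 RPKM (adjusted p = 2.94e-04 by limma), and the reductase gene Cyb5r4 fell from 26.5 ± 0.689 to 22.5 ± 0.799 (adjusted p = 0.00323 by limma). Por, the reductase that serves all microsomal P450s, was at 90.8, 94.3 and 93.1 RPKM in control and at 92.8, 111 and 114 in DM-aKG, with replicate 1 among the controls (adjusted p = 0.0706 by limma). Without DM-aKG replicate 1, Por was called higher (log2 fold change 0.28; adjusted p = 3.90e-04 by limma). Fdxr, which feeds the mitochondrial P450s, rose from 4.20 ± 0.102 to 5.14 ± 0.0850 RPKM (adjusted p = 0.00370 by limma). Por, Fdxr and Cyb5r2 were named after their values were seen.

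Of 12 tested genes of haem synthesis and breakdown, 5 were higher (41.7%, against 30.9% of all tested genes) and 1 lower (8.33%, against 24.7%), with a median of 0.11. Alas1, the rate-limiting enzyme of haem synthesis and itself a target of CAR and PXR in liver, stood at 21.2, 23.4 and 21.3 RPKM in control and at 39.4, 41.5 and 39.9 in DM-aKG. The groups were tight and far apart (log2 fold change 0.86 ± 0.05; adjusted p = 1.63e-05 by limma). On the side of breakdown, haem oxygenase 1 (Hmox1) rose from 5.43 ± 1.06 to 11.7 ± 2.35 RPKM (adjusted p = 0.00139 by limma), and biliverdin reductase B (Blvrb) from 12.6 ± 0.257 to 21.5 ± 0.591 (adjusted p = 1.34e-05 by limma). The gene that was lower was Fech, the last enzyme of synthesis, named after its values were seen, at 16.5 ± 1.11 and 14.5 ± 0.265 RPKM (adjusted p = 0.0227 by limma). The call of Fech was lost without control replicate 2 or 3 or DM-aKG replicate 2 or 3 (adjusted p = 0.0583 to 0.0728 by limma).

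Among 17 tested receptors and factors that control P450 genes, 6 were higher (35.3%) and 4 lower (23.5%), with a median of 0.03. Both shares lay near those of all tested genes, 30.9% and 24.7%. Rarg, a retinoic acid receptor, rose from 1.37 ± 0.0611 to 3.18 ± 0.0819 RPKM (adjusted p = 4.01e-05 by limma), and Nr1h4, the bile acid receptor FXR, from 8.54 ± 0.653 to 12.3 ± 0.607 (adjusted p = 5.60e-04 by limma). Vdr, the vitamin D receptor, fell from 86.6 ± 0.792 to 45.6 ± 7.07 RPKM (adjusted p = 1.88e-04 by limma) and Ppara from 8.20 ± 0.222 to 5.95 ± 0.257 (adjusted p = 3.74e-04 by limma). The factors known for family 1, 2 and 3 genes were looked at after their values were seen. Nr1i3, which encodes CAR, stood at 7.96, 6.98 and 8.4 RPKM in control and at 10.3, 12.3 and 15.04 in DM-aKG, and it rose by 0.65 ± 0.13 on the log2 scale (adjusted p = 0.00370 by limma). Nr1i2, which encodes PXR, was at 16.2 ± 0.225 RPKM in the controls and 16.9 ± 0.900 with DM-aKG (adjusted p = 0.371 by limma). Ahr was at 4.84 ± 0.297 and 4.96 ± 0.318 RPKM (adjusted p = 0.701 by limma). Its partner Arnt was at 13.6 ± 0.260 and 12.5 ± 0.508 (adjusted p = 0.0669 by limma), with every DM-aKG library below every control. Arnt was called lower without DM-aKG replicate 2 (adjusted p = 0.0486 by limma). It was also called lower with median centring (adjusted p = 0.0217 by limma) and quantile normalization (adjusted p = 0.0184 by limma). Hnf4a, the hepatic and intestinal factor whose letters were searched in the promoters, fell from 159 ± 4.38 to 127 ± 4.61 RPKM (adjusted p = 6.87e-04 by limma).

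**Figure D5:**
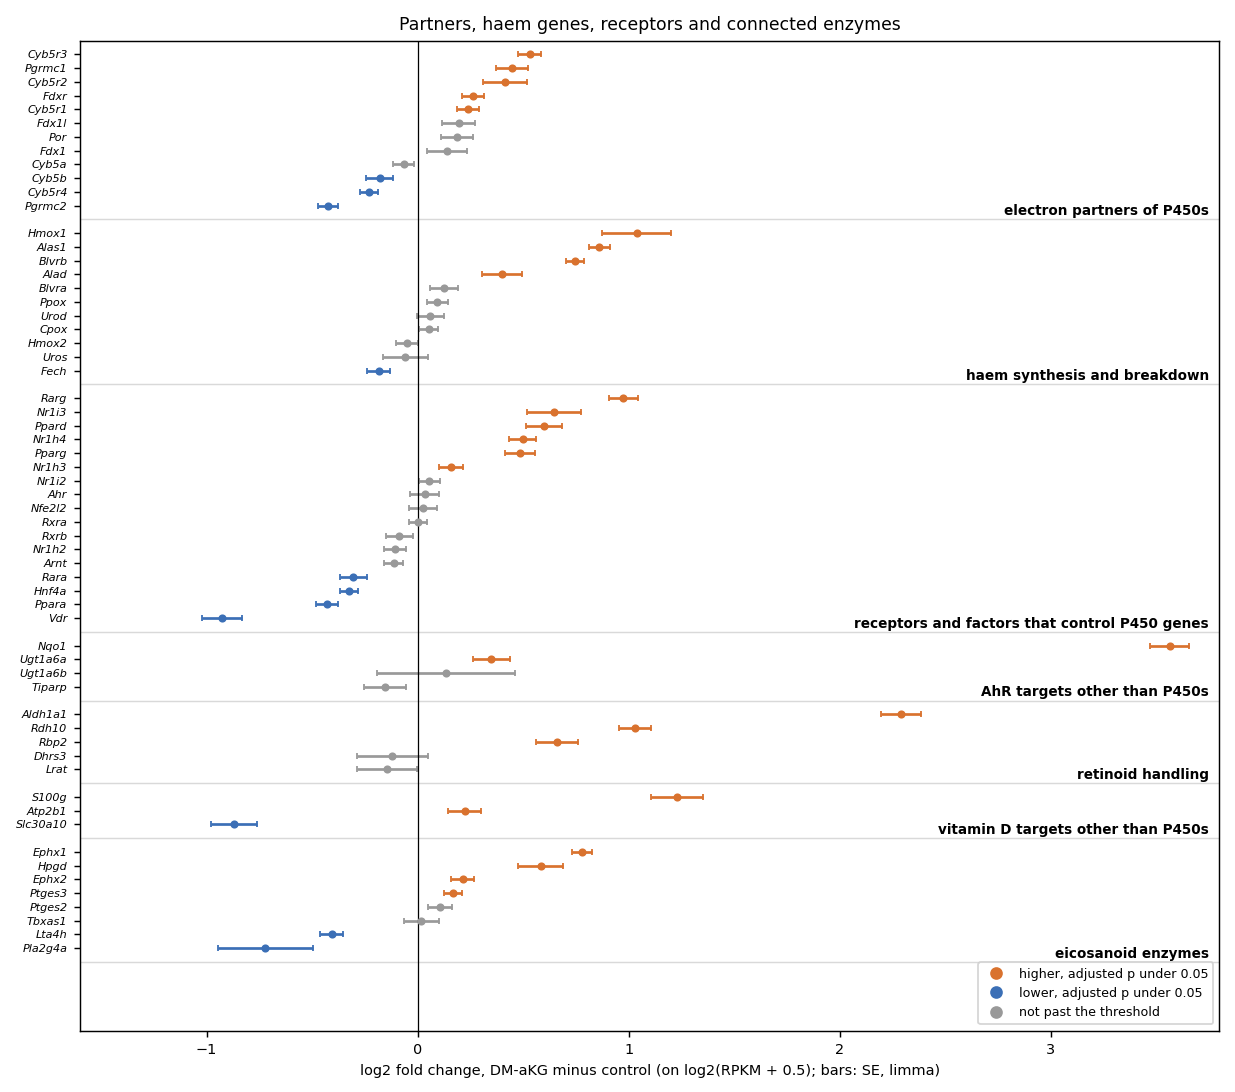
Log2 fold change (DM-aKG minus control, on log2(RPKM + 0.5)) with its SE from limma for the tested genes of 7 lists, without a haem gene that is not reported here, each list sorted by change and colored by call. Nqo1 (3.56) and Aldh1a1 (2.29) lie farthest to the right, Vdr (-0.93) farthest to the left, and Ahr, Nr1i2 and Rxra sit near 0.

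Of 4 tested targets of AhR outside the P450s, 2 were higher, with a median of 0.24, where 30.9% of all tested genes were higher. So few genes say little beside that share. Nqo1, a quinone reductase shared with the antioxidant response, stood at 10.1, 8.73 and 10.2 RPKM in control and at 105, 131 and 125 in DM-aKG (log2 fold change 3.56 ± 0.09; adjusted p = 5.16e-07 by limma). Ugt1a6a, a glucuronosyltransferase gene, rose from 30.6 ± 0.807 to 39.3 ± 5.06 RPKM (adjusted p = 0.0111 by limma). Tiparp, an AhR-induced ADP-ribosyltransferase, was at 7.70 ± 1.25 RPKM in the controls and 6.81 ± 0.249 with DM-aKG (adjusted p = 0.225 by limma). Ugt1a6b varied widely, from 22.2 to 34.9 RPKM in control and from 16.9 to 44.4 in DM-aKG (adjusted p = 0.747 by limma), and without DM-aKG replicate 3 it was called higher (adjusted p = 0.0479 by limma). Ugt1a6a and Ugt1a6b share exons, so their levels are uncertain.

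Of 5 tested retinoid genes, 3 were higher (30.9% of all tested genes were), with a median of 0.66. Aldh1a1, which makes retinoic acid, rose from 7.32 ± 1.13 to 37.5 ± 1.23 RPKM (adjusted p = 3.47e-06 by limma), Rdh10, which makes retinal, from 16.7 ± 1.74 to 34.4 ± 1.70 (adjusted p = 4.61e-05 by limma), and the retinol carrier gene Rbp2 from 148 ± 15.3 to 234 ± 28.2 (adjusted p = 0.00113 by limma). Lrat, which stores retinol as ester, was at 1.07 ± 0.114 and 0.933 ± 0.258 RPKM (adjusted p = 0.408 by limma). The Cyp26 genes that degrade retinoic acid stayed at or below 0.03 RPKM. Of 3 tested vitamin D targets, S100g, a calcium carrier, rose from 60.6 ± 5.52 to 144 ± 26.5 RPKM (adjusted p = 1.73e-04 by limma) and the zinc and manganese transporter gene Slc30a10 fell from 7.84 ± 1.16 to 4.05 ± 0.430 (adjusted p = 4.63e-04 by limma). Atp2b1, a calcium pump gene, was at 30.1 ± 1.90 and 35.3 ± 3.37 RPKM with overlapping groups (adjusted p = 0.0395 by limma), and the call was lost without control replicate 2 or 3 or DM-aKG replicate 2 or 3 (adjusted p = 0.114 to 0.130 by limma).

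Enzymes that share substrates with the P450s of arachidonic acid had 4 of 8 tested genes higher (50%, against 30.9% of all tested genes) and 2 lower (25%, against 24.7%), with a median of 0.14. Ephx1, the microsomal epoxide hydrolase that opens the epoxides P450s make, rose from 117 ± 2.40 to 201.9 ± 9.20 RPKM (adjusted p = 1.69e-05 by limma). Hpgd, which inactivates prostaglandins, rose from 14.8 ± 2.60 to 22.2 ± 0.548 RPKM (adjusted p = 0.00288 by limma), and Ptges3 from 95.9 ± 3.28 to 108 ± 2.83 (adjusted p = 0.0117 by limma). Lta4h, the leukotriene A4 hydrolase, fell from 80.8 ± 1.67 to 60.9 ± 4.30 RPKM (adjusted p = 6.54e-04 by limma). The other lower gene was Pla2g4a, the phospholipase that frees arachidonic acid, named after its values were seen, at 7.92, 8.57 and 7.41 RPKM in control and 7.28, 3.52 and 3.8 in DM-aKG. Its call (adjusted p = 0.0270 by limma) was lost without any single control or without DM-aKG replicate 2 or 3 (adjusted p = 0.0574 to 0.0901 by limma).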

How the data were processed

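RNA was sequenced from 3 control and 3 DM-aKG organoid cultures. The authors deposited RPKM with 2 decimals for 24956 gene symbols, and the submitters' processing notes name CASAVA 1.8, HISAT2 2.0.4, Partek and mm10. What each tool did, which annotation was used and how multi-mapped reads were treated is not given in the sources used here. A change in abundant genes shifts the RPKM of all others. Genes with a mean of at least 1 RPKM over the 6 libraries (10852) were analysed as log2(RPKM + 0.5) with limma 3.58.1 in R 4.3.3 (lmFit, eBayes with trend, two-sided, Benjamini-Hochberg over all tested genes, calls at an adjusted p under 0.05), without a term for the replicate number. The pseudocount makes fold changes of low genes too small. The procedure was tested on simulated data.

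The members and gene lists were chosen with earlier results of these data known. Named were every P450 gene with a mean of at least 1 RPKM, those below with 1 RPKM in any library, those nearest to 1 RPKM, and the genes with the 4 smallest p-values of each list; others are said to be chosen later. A gene of the haem list, which its counts include, is not reported here. Depth was estimated from short RNA genes, where 1 read is a large step in RPKM; besides values at 1 read, 88.2% to 97.1% of those reaching at most 5 came out whole within 0.05. Promoter windows came from RefSeq (GRCm38.p6), gene positions, transcripts and reading frames from GENCODE M21 (GRCm38, the assembly mm10 names), with 103 of 104 members at a single position. Counting errors cover sampling of reads only. Alternatives covered the pseudocount, filter, scaling, variance model, array weights, replicate number and omitted libraries. Python 3.11.15, pandas 2.3.3, numpy 2.4.6 and matplotlib 3.10.9 were used.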

Additional observations from a re-analysis of the deposited data

How the results depend on the processing

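Of the 21 P450 calls, 18 kept their direction and stayed past the threshold in each of the 17 alternatives in which the gene was tested; the others were Cyp2c66, Cyp2u1 and Cyp4f16. The number of P450 genes called higher was 14 to 20 and lower 5 to 7. Over all genes it was 2699 to 4149 and 2049 to 3563. Over only the P450 genes at the filter in both groups, chosen after seeing the data, 13 were higher and 3 lower, since fewer genes were counted. The P450 median of 0.20 was 0.040 with no filter on low values, where 88 members entered, and 0.14 to 0.26 with each library left out in turn. Cyp3a25 reversed to -0.17 when control replicate 2 and DM-aKG replicate 1 were left out together; the cause was not tested. With the replicate block, 14 P450 genes were higher and 5 lower, and Cyp2c66 (adjusted p = 0.0758 by limma) and Cyp2u1 (adjusted p = 0.0622 by limma) were no longer past the threshold. That block left 3206 of all genes higher and 2542 lower. Deviations of same-numbered libraries correlated at -0.08, -0.11 and 0.01 across genes, and those of other pairs at -0.03 to 0.10. With groups of 3, these values cannot tell whether the numbers pair the samples. The summed P450 ratio was 1.26 to 1.34 with each library left out and 1.33 at equal RPKM sums. With a pseudocount of 0.1 the log2 fold change of Cyp11a1 was -2.05 and that of Cyp1b1 1.74. Below about 1 RPKM, a gene of usual length rests on few reads, and groups of 3 cannot give an exact p under 0.1.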

Other observations

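Ptgs2 and Ahrr lay below the filter and were not tested, and their groups did not overlap. Ptgs2, the inducible cyclooxygenase, was at 0.01, 0.02 and 0.05 RPKM in control and at 0.98, 0.25 and 0.30 in DM-aKG. Ahrr, the repressor that AhR induces, was at 0.10, 0.05 and 0.08 RPKM in control and at 0.31, 0.26 and 0.36 in DM-aKG.

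Cyp2c69 stood at 2.83 RPKM in control replicate 2 and 1.57 in DM-aKG replicate 1, against 0.05 to 0.16 in the other 4 libraries, a split that crosses the groups. Of its 50-base windows, 54.3% also occur in another P450 gene, most often Cyp2c40, so its level is uncertain. Cyp2c53-ps, a transcribed pseudogene whose GENCODE span overlaps the GENCODE start of Cyp2c29 on the same strand, upstream of the RefSeq start used for the printed promoter, was at 0.90, 0.71 and 0.69 RPKM in control and at 1.30, 1.29 and 0.90 in DM-aKG. Cyp4f17 was at 0.52, 1.07 and 0.52 RPKM in control and at 1.0, 1.09 and 1.37 in DM-aKG.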
